A study of Homo sapiens with 35 samples.

Results

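RNA polymerase II (RNA Pol II), the enzyme that transcribes all protein-coding genes, had 899 sites in U-87 MG glioblastoma cells that were called in both untreated ChIP-seq libraries and in neither library of cells treated with TWEAK. They were chosen by overlapping the peaks of these 4 lists on the autosomes and X: peaks sharing at least 1 bp were merged, which gave 70348 merged sites, and a merged site was kept when both untreated lists and neither TWEAK list had a peak in it. These 899 are called lost sites here. The same overlap gave 1337 gained sites, with a peak in both TWEAK lists and neither untreated list, and 8981 constant sites, with a peak in all 4. Because the presence of a peak in these 4 lists chose the members, that presence is a description and carries no test.

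The U-87 MG line was established from a human glioblastoma, and TWEAK is a cytokine of the tumour necrosis factor family. Control cells were serum-starved and left untreated or given 10 ng/ml TWEAK for 48 h, and cells in which CRISPR guides had lowered *ETS1* (ETS1 KD) or *NFKB2* (NFKB2 KD) were all TWEAK-treated, so no untreated KD cells were compared. RNA Pol II ChIP-seq had 2 libraries in each of these 4 groups and polyA RNA-seq had 3. ChIP-seq of the transcription factors p52 and ETS1, with 2 libraries per group, covered untreated and TWEAK-treated control cells, and p52 also covered TWEAK-treated ETS1 KD cells made with each of 2 guides. The guide behind the KD cells of the RNA Pol II and RNA libraries is not named in the labels, and whether KD cells were clones or pools was not given in the sources used here.

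RNA Pol II assembles at the promoter, the stretch of DNA around a gene's transcription start, often pauses just inside the gene, and then moves through the gene body to its end. A ChIP-seq peak marks a stretch where the polymerase was bound more often than in the input, so strong peaks lie at promoters and weaker, scattered ones lie along the bodies and ends of genes being transcribed. TWEAK signals through non-canonical NF-κB: the p100 product of *NFKB2* is cut to p52, a DNA-binding subunit that recognises κB motifs. ETS1 is a transcription factor that binds a GGAA core.

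The lost sites are best seen first as sequence. The lines below give, from the hg38 reference and its plus strand, 200 bases around the summit of the strongest untreated peak at 4 of them, shown because they are the strongest intergenic site (nearest gene start *VANGL1*), the strongest exon site whose window could be shown (in *FN1*), the strongest site of *CNIH3* and the strongest promoter site whose window could be shown (the lncRNA gene ENSG00000235911). Capitals mark a motif match on either strand, which in these windows was an AP-1 element at the promoter site and a TATAAA at *CNIH3*.
VANGL1 intergenic, chr1:115545751-115545950: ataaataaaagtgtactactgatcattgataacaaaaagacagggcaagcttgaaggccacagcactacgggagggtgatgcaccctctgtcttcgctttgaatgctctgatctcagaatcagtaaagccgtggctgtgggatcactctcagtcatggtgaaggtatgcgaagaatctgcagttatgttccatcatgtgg
FN1 exon site, chr2:215391943-215392142: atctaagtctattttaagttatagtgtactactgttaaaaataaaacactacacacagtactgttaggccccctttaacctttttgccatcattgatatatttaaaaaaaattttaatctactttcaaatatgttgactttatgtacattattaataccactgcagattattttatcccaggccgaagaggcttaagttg
CNIH3 intron, chr1:224658724-224658923: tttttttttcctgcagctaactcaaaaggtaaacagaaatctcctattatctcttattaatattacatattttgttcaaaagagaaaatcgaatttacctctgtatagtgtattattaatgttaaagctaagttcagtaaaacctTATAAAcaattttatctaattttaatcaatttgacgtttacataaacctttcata
ENSG00000235911 promoter, chr2:19711447-19711646: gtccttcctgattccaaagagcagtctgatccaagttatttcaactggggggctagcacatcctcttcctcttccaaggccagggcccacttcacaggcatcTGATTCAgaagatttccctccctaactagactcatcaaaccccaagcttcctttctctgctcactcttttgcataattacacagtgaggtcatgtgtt
The *CNIH3* window was 24% G and C and the *FN1* window 29.5%, against 45.5% at *VANGL1* and 47.5% at the promoter site.

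A second set of sequences is shown because it lies under p52 peaks at lost sites. Each line is the 100 bases around the summit of the p52 peak in TWEAK library 2, with κB motif matches in capitals, together with an ETS match at *LINC01138* and an AP-1 match at *EGFR*.
VANGL1 p52 summit, chr1:115546314-115546413: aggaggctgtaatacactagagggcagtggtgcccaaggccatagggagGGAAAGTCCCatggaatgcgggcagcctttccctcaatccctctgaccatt
LINC01138 p52 summit, chr1:148458882-148458981: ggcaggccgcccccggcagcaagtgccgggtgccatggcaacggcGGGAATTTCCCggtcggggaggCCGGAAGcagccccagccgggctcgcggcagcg
EGFR p52 summit, chr7:55065283-55065382: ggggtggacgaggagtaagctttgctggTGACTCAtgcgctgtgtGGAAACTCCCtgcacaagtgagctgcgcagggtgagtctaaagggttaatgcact
The p52 summit lay 513 bp from the RNA Pol II summit at *VANGL1*, 267 bp at *LINC01138* and 132 bp at *EGFR*.

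As a class, the windows of lost sites held less G and C than those of gained and constant sites. Their median G and C content was 42%, against 49% at gained and 61% at constant sites, and no genome-wide background was computed. The order was the same away from promoters, where the medians were 41.5%, 46.5% and 50%. The GC box (GGGCGG), a promoter element bound by SP-family factors, was found in 4.78% of lost windows, 12.9% of gained and 35.8% of constant ones. The AP-1 element (TGANTCA) was in 11.9% of lost windows, 8.45% of gained and 6.89% of constant windows, but away from promoters its share at lost sites, 12.4%, was near that of constant sites, 11.9%. TATAAA was in 16.4%, 11.9% and 7.87%, and the TEAD element (GGAATG) was in 13.1%, 10.7% and 9.19%. Away from promoters TATAAA was in 17.3%, 13.2% and 12.2%, and the TEAD shares were close together, at 13.1%, 11.7% and 12.4%. The κB motif was in 1.45% of lost, 3.81% of gained and 3.65% of constant windows. The ETS element (CCGGAAG) was in 1.33%, 1.65% and 8.90%. At promoters the ETS shares were 7.02%, 3.58% and 12.9%, and away from them 0.510%, 1.13% and 3.46%. Both strands were searched, matches of different motifs may overlap, a match is not a bound site, and the part of base composition in any of these shares was not tested.

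Lost sites were weak peaks. MACS2 scores a peak by its fold enrichment over background and by the −log10 of its q-value, a significance that grows with sequencing depth. The median fold enrichment of lost sites was 4.44 and 4.39 in untreated libraries 1 and 2 and the median −log10 q-value 2.87 and 3.08, against −log10 q-values of 7.49 and 16.8 at constant sites. Gained sites were about as weak, with medians of 3.53 and 3.27 in TWEAK libraries 1 and 2. The median lost site was 470 bp wide, a gained one 487 bp and a constant one 1163 bp.

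Taking for each lost site the lower of its untreated −log10 q-values, the median was 2.25 and the highest 8.45, and 32 sites (3.56%) were at 5 or more in both libraries. At the edge of the rule, the 20 weakest lost sites had lower values of 1.02 to 1.11, close to the lowest values in the lists. Just outside it were 1844 sites with a peak in both untreated lists and 1 of the TWEAK lists, whose median lower untreated value was 2.82 and whose TWEAK peak had a median of 4.30 (range 1.03 to 142). Of these, 1359 had their TWEAK peak in library 1 only and 485 in library 2 only. The lists differed in length: 24766 and 38245 peaks in the untreated libraries, 44564 and 26986 in the TWEAK libraries. Without TWEAK library 1 the rule kept 2429 sites and without TWEAK library 2 it kept 1423. With untreated library 2 alone it kept 15142, and with untreated library 1 alone 7101.

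Many lost sites had a TWEAK peak close by. The gap to the nearest peak of either TWEAK list had a median of 1259 bp, and it was at most 1000 bp at 412 sites (45.8%). If a TWEAK peak nearer than 1000 bp also counted as presence, 488 sites remained, 1 site having a gap of exactly 1000 bp. Keeping the 24766 strongest peaks of each of the 4 lists gave 726.

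The strongest lost sites lay in different parts of genes. First by the lower −log10 q-value was an exon near the end of *CNIH4* (chr1:224378592-224378812), with 8.45 and 8.99 in the untreated libraries, and *CNIH4* encodes a protein of the cornichon family that helps receptors leave the endoplasmic reticulum. Next was the intergenic site nearest *VANGL1* (chr1:115545659-115546142), a planar cell polarity gene, with 9.41 and 8.24. This site lay 96069 bp from the nearest start, and no TWEAK peak was nearer than 114399 bp. The strongest at a promoter was *CNN2* (chr19:1026464-1026870), which encodes the actin-binding protein calponin 2, with 7.63 and 13.4. The 7 next strongest sites were assigned to *RAB3GAP2*, *CDKN3*, *MTCL1*, *STK38L*, *LINC01060*, *KCTD10* and *MLPH*.

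Most lost sites lay inside genes rather than at their starts. A promoter was taken as 1000 bp before to 100 bp after an annotated transcript start, and 114 lost sites (12.7%, exact 95% interval 10.6 to 15.0) were there. Introns held 485 sites (53.9%), other exons 109 (12.1%), the 5 kb downstream of genes 84 (9.34%) and other intergenic DNA 107 (11.9%). The promoter share was 20.9% (18.7 to 23.1) of gained and 57.8% (56.8 to 58.8) of constant sites. These intervals cover counting error only. The promoter share of lost sites was 18.6% without TWEAK library 1, 17.1% without TWEAK library 2, 16.3% without untreated library 1 and 8.84% without untreated library 2, and 23.6% among peaks with a −log10 q-value of at least 5.

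**Figure D1:**
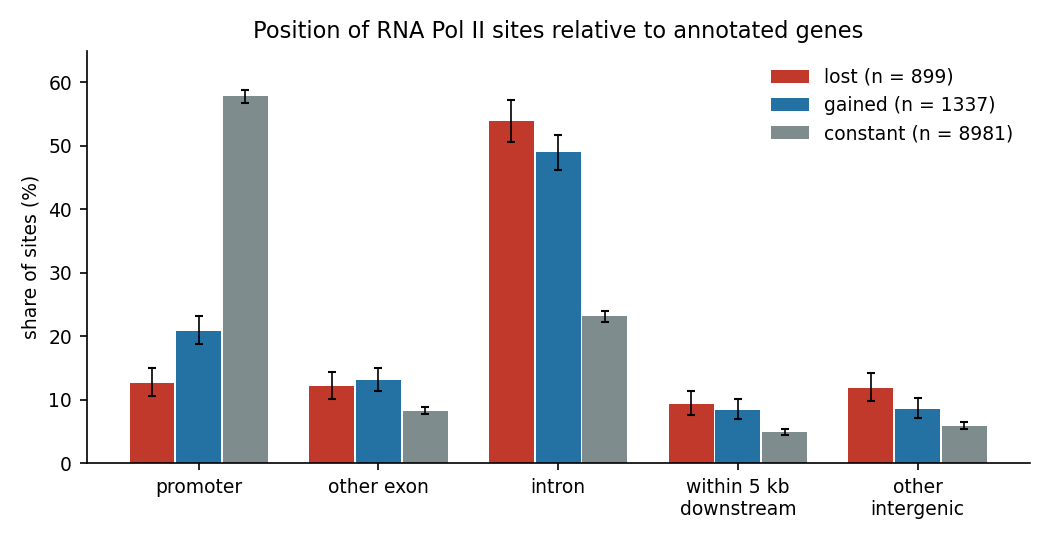
Share of sites (%) in each class of position, for lost, gained and constant RNA Pol II sites, with exact 95% binomial intervals as error bars (counting error only). Introns held 53.9% of lost sites and promoters 12.7%, whereas promoters held 57.8% of constant sites.

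Within genes, lost sites leaned towards the far end. Of the 594 in gene bodies, 33.5% lay in the last of 4 equal parts of the gene and 19.02% in the first, against 25.1% and 37.8% of constant body sites. Gained body sites showed the same lean, with 39.9% and 20.1%. Counted once per site, the host genes of lost body sites had a median length of 118.5 kb, against 75.7 kb for gained and 68.8 kb for constant body sites. Genes with several sites therefore count more than once in these medians. By gene type, 789 of the 899 sites (87.8%) were assigned to a protein-coding gene and 98 to a lncRNA gene. Chromosome 1 held most, 104 sites, and the share on each chromosome ranged from 1.00% on chromosome 13 to 11.6% on chromosome 1.

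In TWEAK-treated KD cells, lists that the rule did not use, a minority of lost sites had an RNA Pol II peak. ETS1 KD libraries 1 and 2 had one at 18.6% (16.1 to 21.3) and 22.5% (19.8 to 25.3) of lost sites, and NFKB2 KD libraries 1 and 2 at 33.6% (30.5 to 36.8) and 4.12% (2.91 to 5.63). Both ETS1 KD libraries had a peak at 83 sites (9.23%) and both NFKB2 KD libraries at 19 (2.11%). Over the 4 KD lists, 450 sites (50.1%) had no KD peak, 266 had a peak in 1 list, 109 in 2, 72 in 3 and 2 in all 4.

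Constant sites had KD peaks far more often, and gained sites more often in the ETS1 KD libraries. Gained sites had one in 32.3%, 37.7%, 35.9% and 5.16% of cases in the same order of libraries, and constant sites in 88.0%, 89.4%, 94.0% and 64.0%. Constant sites whose weaker untreated peak had a −log10 q-value under 5, a set of 3198 added after the data had been seen, had 76.7%, 79.0%, 86.96% and 39.7%. This set was not matched to lost sites for width. Constant sites were wider (median 1163 bp against 470 bp), an overlap of 1 bp counted, and the part of width was not tested. The KD lists also differed in length. ETS1 KD had 24667 and 29744 peaks and NFKB2 KD 30267 and 11110. The shortest, NFKB2 KD library 2, had the lowest share in each of these sets, and the part of list length was not tested. With the 11110 strongest peaks of each of the 8 lists, 253 sites met the rule, and 45.1% of them had a peak in at least 1 ETS1 KD library and 50.2% in at least 1 NFKB2 KD library, against 31.8% and 35.6% of the 899. The lost sites chosen without TWEAK library 1 gave 46.3% and 46.2%, and those chosen without untreated library 2 gave 13.4% and 12.7%.

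**Figure D2:**
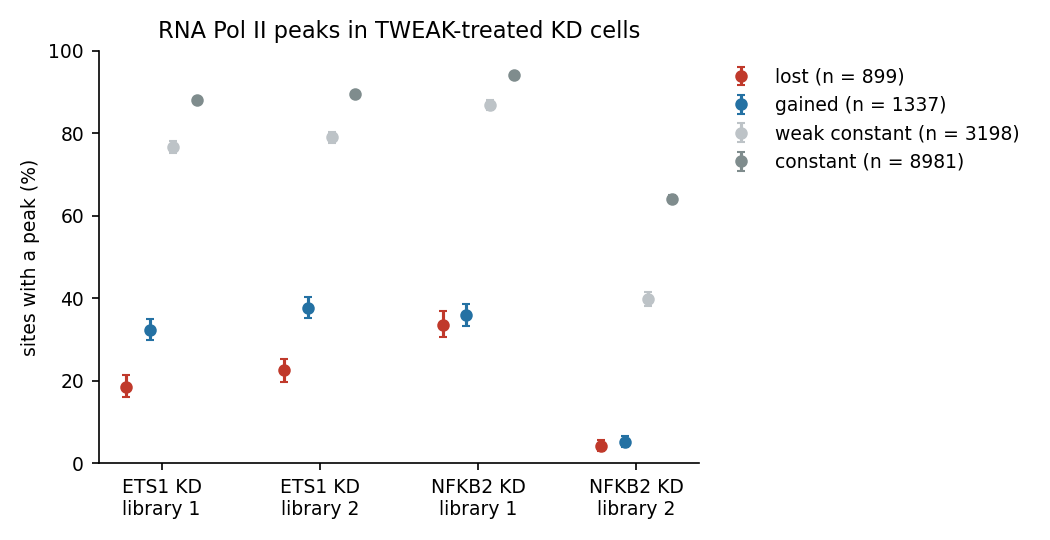
Share of lost, gained, weak constant and constant RNA Pol II sites (%) with a peak in each RNA Pol II library of TWEAK-treated ETS1 KD or NFKB2 KD cells; bars are exact 95% binomial intervals. Lost sites had the lowest shares (4.12% to 33.6%), with intervals that overlap those of gained sites in both NFKB2 KD libraries, and all 4 sets dropped in NFKB2 KD library 2, the list with the fewest peaks.

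Of the 32 lost sites at 5 or more in both untreated libraries, 71.9% had a peak in NFKB2 KD library 1. At these 32 sites NFKB2 KD library 2 had a peak in 1 (3.12%), and ETS1 KD libraries 1 and 2 in 31.2% and 37.5%. The *CNN2* promoter had a peak in both ETS1 KD libraries (−log10 q-values 6.30 and 10.3) and in NFKB2 KD library 1 (25.1) but none in NFKB2 KD library 2. At the *CNIH4* exon ETS1 KD library 2 had a peak (7.78), as did NFKB2 KD library 1 (3.09). The *VANGL1* site had one in NFKB2 KD library 1 only (2.51). The 2 sites called in all 4 KD libraries lay downstream of *CTSL* (chr9:87732149-87732872), which encodes the lysosomal protease cathepsin L, and in an exon of the gene ENSG00000280424 (chr22:46006711-46007690). The 4 KD values at *CTSL*, 1.48, 6.89, 5.28 and 1.26, were of the same order as its untreated values of 3.43 and 4.28.

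Binding of p52 or ETS1 at lost sites was rare. A p52 peak in any of the 8 p52 libraries overlapped 26 lost sites (2.89%), against 7.93% of gained and 17.2% of constant sites. An ETS1 peak in any of the 4 ETS1 libraries overlapped 12 lost sites (1.33%), against 3.52% and 16.8%. Constant sites were wider, as given above, and the part of width in these shares was not tested. In control cells, 25 lost sites had a p52 peak in a TWEAK library, 24 of them in library 2 and 8 in library 1, and 12 of the 25 had a κB match within 100 bp of the p52 summit. TWEAK library 2 had 11678 p52 peaks and library 1 had 3439.

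A few of these p52 peaks were strong. At the *VANGL1* site the p52 fold enrichment was 50.4 and 105 in TWEAK libraries 1 and 2, neither untreated p52 library had a peak there, and the 4 ETS1 KD libraries of TWEAK-treated cells ranged from 39.0 to 94.8. An exon of *LARS2*, which encodes the mitochondrial leucyl-tRNA synthetase, had 36.5 and 85.5, and an exon of the lncRNA gene *LINC01138* had 27.6 and 59.6. In an intron of *EGFR*, the epidermal growth factor receptor, p52 was called in TWEAK library 2 only of the control libraries (16.2), and the same held at the *GATAD2B* promoter (16.1) and in an intron of *ZMIZ1* (13.4). At the *EGFR* site the nearest RNA Pol II peak of a TWEAK library lay 190 bp away, and at *LINC01138* 301 bp away. The promoter site of ENSG00000285498 had its strongest p52 peak in untreated library 2. The p52 fold enrichment there was 9.70 and 95.8 in untreated libraries 1 and 2, and 5.10 and 4.64 in TWEAK libraries 1 and 2. ETS1 was called there in all 4 of its libraries, at 3.80 and 14.6 in untreated and 27.3 and 4.74 in TWEAK libraries 1 and 2. Libraries of the same group thus differed widely at this site for both factors, and no TWEAK effect is read from it.

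The 899 sites were assigned to 706 genes: the gene whose promoter or body held the site, or otherwise the one with the nearest start. Of these, 600 genes had 1 lost site, 71 had 2 and 35 had 3 or more, and those 35 held 157 sites. *FN1* (fibronectin, an extracellular matrix protein that integrins bind) and *LHFPL2* (a membrane protein) had 8 each. *CNIH3* (an auxiliary subunit of AMPA receptors) and *CSMD2* (a large transmembrane protein) had 7 each, and *CHD2* (a chromatin remodeller), *DST* (a cytoskeletal linker), *NRP1* (a co-receptor for semaphorins and VEGF) and *ZMIZ1* (a transcriptional co-regulator) had 6. Among the genes with 5 sites was *ITGB1*, the integrin β1 chain that pairs to form the main fibronectin receptor.

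*FN1* (chr2:215360440-215436073, minus strand, 75.6 kb) was examined along its whole length. Its body held 28 and 42 RNA Pol II peaks in the untreated libraries and 11 and 3 in the TWEAK libraries. Those peaks covered 19923 and 28923 bp without TWEAK and 3927 and 958 bp with it. These are the 4 lists that chose the sites, and *FN1* was taken for its many lost sites, so the lower TWEAK values are a description that the choice partly fixes. In TWEAK-treated KD cells they covered 4259 and 2498 bp with ETS1 KD and 6186 and 1679 bp with NFKB2 KD. The rule did not use these 4 lists, but it did use the untreated ones, and all 4 values were below both untreated values. The peak at the start of the gene was present in all 8 libraries, with −log10 q-values of 43.2 and 109 in untreated, 124 and 45.3 in TWEAK-treated, 70.8 and 63.5 in ETS1 KD and 66.2 and 37.7 in NFKB2 KD cells.

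The 8 lost sites of *FN1* lay from 41.6 to 65.1 kb after the start and at 76.8 to 77.5 kb, just past the annotated end. The strongest by fold enrichment was the exon site whose sequence is given above (chr2:215391015-215392652), with 10.9 and 5.38 in untreated libraries 1 and 2 and no peak in any KD library. The site strongest in both libraries at once, in an intron (chr2:215373904-215375056), had 6.93 and 6.31, and of the KD libraries NFKB2 KD library 1 alone had a peak there (−log10 q-value 4.93). Of the sites, 2 fell in the promoter windows of internal transcript starts and not at the main one. *FN1* had no gained site and 1 constant site. Peak lists hold no read depth, so peak number and covered length also follow how deep a library was and how many peaks it gave. Over the whole lists, peaks covered 13782.6 and 23178.5 kb without TWEAK and 27398.7 and 16216.6 kb with it, so the groups overlapped there.

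**Figure D3:**
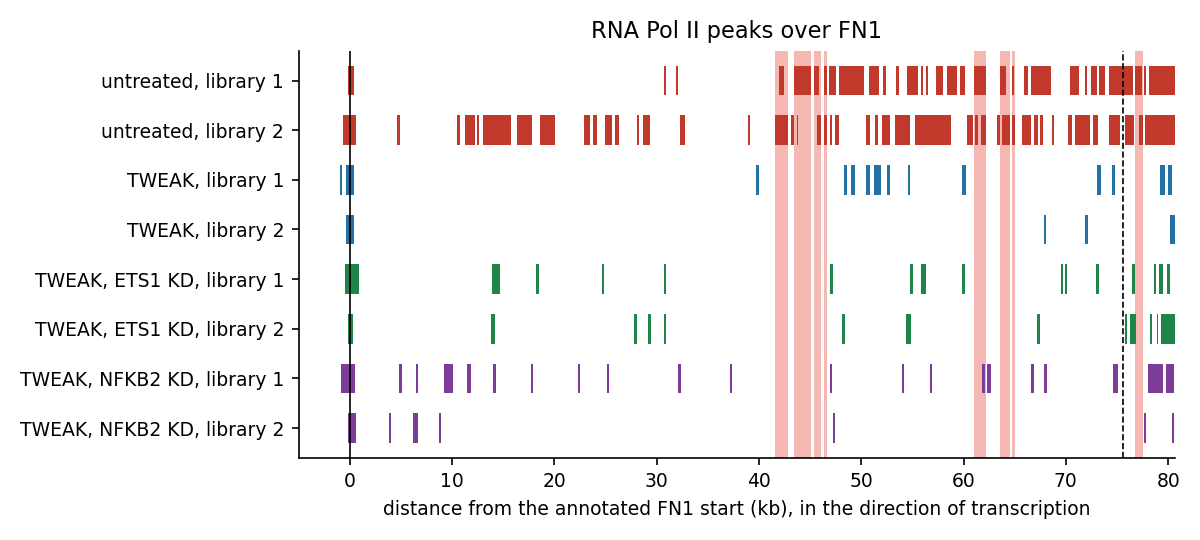
RNA Pol II peaks (boxes) over *FN1* in each of the 8 libraries, by distance in kb from the annotated start in the direction of transcription; the solid line is the start, the dashed line the end at 75.6 kb, and pink bands are the 8 lost sites. The start-site peak is in every row, and the body peaks, 28 and 42 in the untreated rows, thin to 3 to 19 in the other 6 rows.

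The other genes with many lost sites varied. Of the 35, 12 had less covered length in both TWEAK libraries than in both untreated libraries (*FN1*, *CNIH3*, *DLG1*, *IQGAP1*, *LIMA1*, *PAPPA*, *PSD3*, *ZFPM2-AS1*, *CHSY1*, ENSG00000259732, *FHL2* and *FNIP2*). In 17 of the 35 all 4 KD libraries lay below both untreated libraries, and 18 had no gained site. The 35 genes were chosen from the same untreated and TWEAK lists, so these counts are descriptions and nothing is read from them. *CNIH3* peaks covered 10824 and 22603 bp in untreated and 8482 and 8100 bp in TWEAK-treated cells, and 7368, 6345, 9744 and 1718 bp in the KD libraries. *ZMIZ1* went both ways, with 20262 and 43148 bp untreated, 49170 and 11723 bp with TWEAK, and 7 gained beside its 6 lost sites. *CSMD2* likewise had 8 gained beside 7 lost sites. *LHFPL2* (22949 and 15908 bp untreated, 21583 and 4718 bp with TWEAK) overlapped between the groups.

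The RNA of these genes was measured independently of the rule. Totals were 28384201 to 40192606 counts per library, and levels are given as CPM, each gene's counts scaled to a common library total and not to gene length. Of the 706 genes, 131 (18.6%) were under 1 CPM in untreated cells and the median was 43.2. The median over the 16879 genes tested was lower, at 15.7 CPM. These are bulk measurements, in which a change in RNA per cell and a change in the mix of cells cannot be told apart. The targeted genes followed the labels. *NFKB2* was at 49.6, 54.5 and 66.6 in untreated, 235, 289 and 346 in TWEAK-treated and 75.6, 92.6 and 105 in NFKB2 KD libraries. *ETS1* was at 42.0, 41.3 and 45.1, then 71.9, 73.1 and 87.6 with TWEAK and 28.2, 33.0 and 37.8 in ETS1 KD libraries. The glioma-line genes *VIM* and *CD44* averaged 9112 and 1248 CPM in untreated cells. The astrocyte marker *GFAP* (0.217), the neural stem cell factor *SOX2* (0.0102) and the neuronal marker *RBFOX3* (0) were at or near 0. So were the glial gene *S100B* (0.139) and the leukocyte marker *PTPRC* (0.0643). The glial gene *OLIG2* (1.22), the endothelial marker *PECAM1* (1.18) and the epithelial marker *EPCAM* (1.63) were low but above 1 CPM. NFKB2 KD library 2 stood apart from the others of its group at *CHI3L1*, *F2RL1* and *SPARC*, where it was at 385, 24.0 and 976 and the others at most at 86.0, 15.0 and 510.

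Of the 706 genes, 610 had enough counts to be tested (edgeR's quasi-likelihood test over all genes, Benjamini-Hochberg adjusted p under 0.05). With TWEAK, 25 of them fell (4.10%) and 9 rose (1.48%), and 576 did not pass. Over all 16879 genes tested 1.53% fell and 1.55% rose, so the share that rose was near the background and the share that fell was above it. Genes of gained sites had the other balance, with 5.98% rising and 0.902% falling, and genes of constant sites 2.14% and 1.26%. These sets share genes: 135 genes had both lost and gained sites, 19.1% of the lost-site and 12.9% of the gained-site genes. The median log2 fold change of the lost-site genes was 0.00, against 0.02 over all genes. No test was made of these shares against each other, and the part of RNA level in them was not tested.

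Of the genes with a lost site in the body, 20 of 405 tested fell (4.94%), and of those with one at a promoter 1 of 94 did (1.06%). With 3 or more lost sites, 2 of 33 genes fell (*CNIH3* and *LIMA1*) and none rose. The count of falls dropped whichever library was left out: it was 6 without untreated library 1 or 2, 16 without untreated library 3 or TWEAK library 1, and 4 without TWEAK library 2 or 3, and the rises were 2 to 7. Shares over all genes were not taken from those fits, so these counts cannot be set against a background. Of the TWEAK calls of lost-site genes described below by the naming rule, those of *F2RL1*, *CYP1B1*, *CPM* and *KLF4* held whichever library was left out. Each of the others missed the threshold in at least 1 such fit. Over the named genes, with the targeted genes included, 83 of the 132 such values missed it, all in those others.

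In TWEAK-treated cells, ETS1 KD against control had 10 falls (1.64%) and 1 rise (0.164%) among the 610, against 1.13% and 0.255% over all genes. NFKB2 KD against control had no fall and no rise by edgeR, against 0.0237% and 0.00592% over all genes. At an unadjusted p under 0.05, 6 were lower and 19 higher in NFKB2 KD cells, and DESeq2 called 0 falls and 1 rise. Without NFKB2 KD library 2 edgeR called 0 of each as well. Both KD comparisons and the TWEAK comparison share the TWEAK-treated control libraries.

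**Figure D4:**
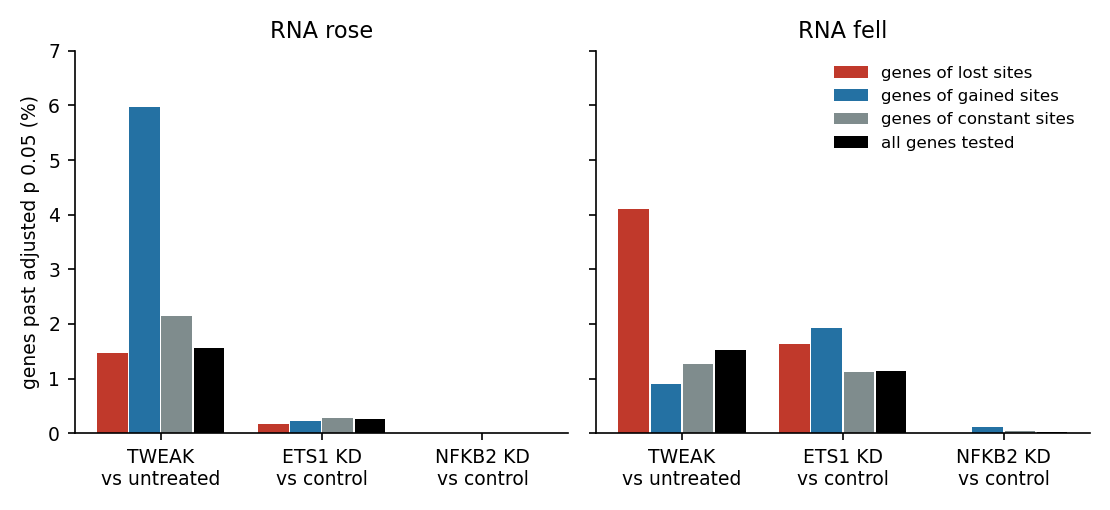
Share of tested genes (%) whose RNA rose (left) or fell (right) past an adjusted p of 0.05 in each comparison, for genes of lost, gained and constant RNA Pol II sites and for all genes tested. With TWEAK, 4.10% of lost-site genes fell against 1.53% of all genes, and 5.98% of gained-site genes rose against 1.55%.

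*FN1* RNA was lower in TWEAK-treated cells but did not pass the test. Its level was 1237, 1273 and 2785 CPM in the untreated libraries and 412, 889 and 1078 with TWEAK. All 3 TWEAK libraries lay below all 3 untreated ones, and untreated library 3 was far above the other untreated values. The log2 fold change was −1.15 (SE 0.44) and the edgeR adjusted p 0.217. In KD cells *FN1* was at 773, 480 and 943 with ETS1 KD and at 582, 1610 and 1156 with NFKB2 KD, overlapping the TWEAK-treated controls.

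The steepest falls above a few CPM were those of *CHI3L1*, *F2RL1*, *AK5*, *GPRC5C* and *CYP1B1*. *CHI3L1* (the secreted glycoprotein YKL-40, a marker of mesenchymal glioblastoma) was at 269, 263 and 305 CPM in untreated and 56.3, 69.9 and 55.6 in TWEAK-treated libraries, with no overlap (log2 fold change −2.20, SE 0.48, edgeR adjusted p 0.0282). Its lost site lay downstream of the gene (chr1:203177926-203178386). In ETS1 KD cells *CHI3L1* was at 106, 88.1 and 87.2, and in NFKB2 KD cells at 86.0, 385 and 72.7, where library 2 alone was above the untreated level.

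*F2RL1*, the protease-activated receptor PAR2, was at 25.1, 26.0 and 24.8 in untreated and 10.4, 9.71 and 8.36 in TWEAK-treated libraries, 2.66-fold lower (edgeR adjusted p 0.00109). NFKB2 KD library 2 again stood above the others of its group, at 24.0 against 13.8 and 15.0. *CYP1B1*, a cytochrome P450 that oxidises steroids and polycyclic aromatics, was at 145, 151 and 139 without and 65.6, 70.9 and 83.3 with TWEAK, 1.98-fold lower (adjusted p 0.000636, edgeR). Its lost site was an exon peak near the gene's end (chr2:38068842-38069611), and both KD groups, at 68.1 to 90.2, stayed near the TWEAK-treated controls.

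*GPRC5C*, an orphan G protein-coupled receptor, was the gene with a lost promoter site that fell. It was at 91.5, 95.3 and 99.6 in untreated and 48.6, 51.8 and 40.7 in TWEAK-treated libraries, and at 23.9, 20.6 and 18.04 in ETS1 KD libraries, so that each of these groups lay below the one before. NFKB2 KD libraries were at 24.6, 56.8 and 32.3, overlapping the TWEAK-treated controls. The fold changes were 2.03-fold lower with TWEAK (edgeR adjusted p 0.0381) and a further 2.26-fold lower with ETS1 KD (edgeR adjusted p 0.0309). The ETS1 KD call missed the threshold in each of the 6 fits that left out 1 library. The promoter site (chr17:74430541-74431206) also had a p52 peak in TWEAK library 2 (fold enrichment 5.77) and an ETS1 peak in untreated library 1 (4.35).

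*AK5*, an adenylate kinase, was at 14.6, 15.4 and 11.2 without and 5.85, 5.20 and 4.97 with TWEAK, which did not overlap (2.58-fold lower, edgeR adjusted p 0.0100). *CNIH3*, with its 7 lost sites, was at 64.5, 68.0 and 71.8 without and 46.4, 44.8 and 41.5 with TWEAK (1.54-fold lower, edgeR adjusted p 0.0432). Its NFKB2 KD libraries were at 48.0, 74.9 and 50.5. The other 5 of the 10 steepest falls were in genes at low levels, under 3 CPM in every library: *PAK6* (a p21-activated kinase), *CLSTN2* (calsyntenin 2, a synaptic adhesion protein), *KCNJ15* (an inward-rectifier potassium channel), *B3GALT1* (a galactosyltransferase) and the lncRNA gene ENSG00000255422, with log2 fold changes of −1.10 to −1.73.

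Other falls outside the naming rule, listed here after their values were seen, included *WLS*, the carrier that Wnt ligands need for secretion (293, 298 and 314 without and 192, 185 and 190 with TWEAK). *LIMA1*, an actin-bundling protein, went from 206, 210 and 168 to 144, 128 and 125. *BMPER*, a secreted regulator of bone morphogenetic proteins, fell with TWEAK from 19.4, 18.7 and 22.8 to 14.03, 11.7 and 11.02 and was the gene that rose with ETS1 KD, to 20, 21.4 and 23.4 (log2 fold change 0.82, edgeR adjusted p 0.00642).

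Of the 9 rises, 1 was in a gene with a lost site at a promoter, as was 1 of the 25 falls, and promoters held 12.7% of all lost sites. Of the rises, 8 of the 9 are described here. *NFKBIZ*, which encodes the nuclear NF-κB regulator IκBζ, rose from 17.8, 17.7 and 20.8 to 28.3, 33.0 and 45.5 (1.90-fold, edgeR adjusted p 0.0406). With ETS1 KD it was at 13.0, 11.6 and 15.1, below even the untreated libraries (2.68-fold lower than TWEAK-treated control, edgeR adjusted p 0.00540). With NFKB2 KD it was at 24.6, 16.4 and 30.2, which overlapped the TWEAK-treated controls and did not pass the test. The *NFKBIZ* site (chr3:101936308-101936875) lay 79392 bp from the nearest start, so the assignment rests on distance alone.

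*KLF4*, a zinc-finger transcription factor, was at 10.6, 10.4 and 12.3 without and 20.5, 21.5 and 20.2 with TWEAK (1.87-fold higher, edgeR adjusted p 0.00406), with a lost site 566448 bp from its start. *DUSP10*, a phosphatase of p38 and JNK kinases, rose from 14.1, 16.2 and 16.3 to 22.3, 22.03 and 22.8 and was at 13.2, 13.9 and 13.3 with ETS1 KD (edgeR adjusted p 0.0205 and 0.00421). With NFKB2 KD it was at 16.5, 16.1 and 18.5, also below every TWEAK-treated control, but did not pass the test (edgeR adjusted p 0.727). The gene of carboxypeptidase M, whose symbol *CPM* is also the name of the unit, was at 3.996, 4.30 and 4.31 without and 9.005, 9.06 and 9.77 with TWEAK. *ERAP1*, which trims peptides for antigen presentation, was at 46.2, 47.9 and 49.2 without and 65.8, 68.1 and 86.8 with TWEAK. *PAPLN*, an extracellular matrix proteoglycan-like protein, was at 0, 0.0922 and 0.0938 without and 0.395, 0.896 and 0.805 with TWEAK, and at such levels the size of its rise is uncertain. The lncRNA genes *LINC01204* and ENSG00000251127 rose 1.70-fold and 1.66-fold.

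**Figure D5:**
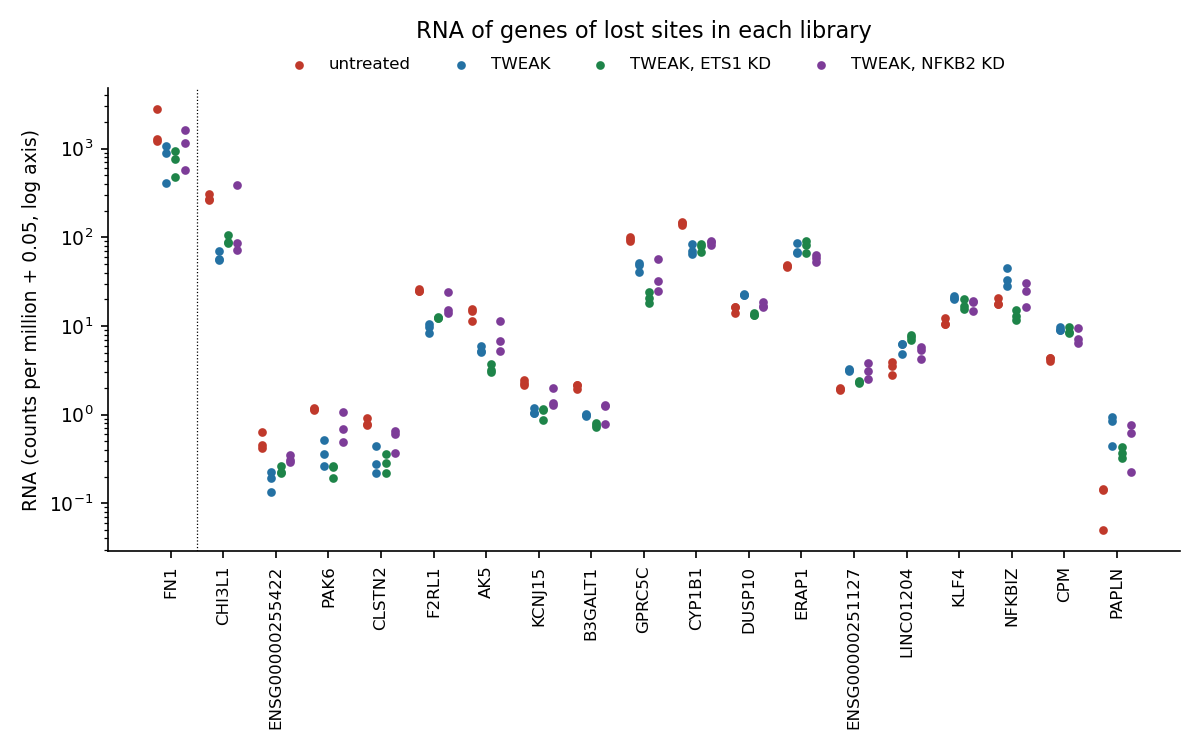
RNA level of *FN1* and of the genes of lost sites with the largest TWEAK falls and rises that passed the test (8 of the 9 rises are drawn), in each of the 3 libraries of the 4 groups (one point per library, CPM plus 0.05, log axis). *FN1* is left of the dotted line; the next 10 genes, from *CHI3L1* to *CYP1B1*, have their untreated points above their TWEAK points, and the last 8 have them below.

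Genes of ETS1 KD falls included *FBXO32*, a ubiquitin ligase subunit of muscle wasting, named after its values were seen. It was at 58.7, 73.3 and 72.3 in TWEAK-treated control and 33.6, 29.3 and 35.4 in ETS1 KD libraries (2.08-fold lower, edgeR adjusted p 0.00354). *SMYD3*, a lysine methyltransferase, was at 41.4, 34.2 and 33.2 against 18.8, 18.4 and 16.1. Genes at the strongest p52 peaks did not pass the TWEAK test. *VANGL1* was at 73.4, 82.3 and 85.2 without and 82.8, 86.9 and 97.8 with TWEAK, *LARS2* at 63.6, 64.5 and 65.4 against 62.1, 63.3 and 66.1, and *EGFR* at 69.8, 79.7 and 118 against 79.3, 125 and 158.

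By pathway, lost sites were compared with the share over all genes: 610 of the 16879 genes tested in RNA (3.61%) had one. Their median annotated length was 25.9 kb, and the part of gene length in the shares of the lists was not tested. Of 27 extracellular matrix genes, 4 had a lost site (*FN1*, *LAMB1*, *SPARC* and *TNC*), 6 a gained and 15 a constant one. The 4 were 16.7% of the 24 tested genes of the list, whose median length was 89.8 kb. None of the 4 passed the TWEAK test, and over the list 1 fell, none rose and the median log2 fold change was −0.27 against 0.02 over all genes. *SPARC*, a matricellular protein, was at 619, 672 and 838 without and 374, 435 and 493 with TWEAK, which did not overlap but did not pass (edgeR adjusted p 0.178). Among 31 genes of integrins, focal adhesion and the actin cytoskeleton, 7 had a lost site (*CALD1*, *FLNC*, *ITGB1*, *PTK2*, *TLN2*, *VCL* and *ZYX*) and none of these 7 passed. They were 23.3% of the 30 tested genes, whose median length was 80.4 kb. *ITGB1* RNA was at 833, 899 and 808 without and 844, 839 and 956 with TWEAK, overlapping throughout.

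In the TGF-β pathway, lost sites were assigned to the latent binding protein *LTBP1*, the receptors *TGFBR1* and *TGFBR2* and the signal transducer *SMAD3*, and none of these 4 genes passed the TWEAK test. *TGFBR2* was at 124, 127 and 126 without and 93.6, 85.0 and 97.6 with TWEAK (edgeR adjusted p 0.0817). Of 16 YAP and TEAD genes, 3 had a lost site (*AXL*, *WWTR1* and *YAP1*), of 10 AP-1 factors 1 (*BATF3*), of 21 cell cycle genes 2 (*MCM5* and *MCM7*), of 11 growth factor receptors 1 (*EGFR*) and of 11 ATF4 targets none, and none of these passed.

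Of 24 genes of the NF-κB pathway and its targets, 1 had a lost site, *BCL3*, a nuclear partner of p52, against 5 with a gained and 15 with a constant site. That was 4.35% of the 23 tested genes, near the 3.61% over all genes, and *NFKBIZ* is not in this list. The *BCL3* site lay downstream of the gene (chr19:44759931-44760577), with −log10 q-values of 2.31 and 2.44 and a TWEAK peak 448 bp away. In RNA, 15 of the 23 tested NF-κB genes rose with TWEAK and none fell, against 1.55% and 1.53% over all genes. The median log2 fold change of the list was 1.12, against 0.02 over all genes. *BCL3*, the gene of the list with a lost site, did not pass the TWEAK test.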

How the data were processed

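The RNA Pol II, p52 and ETS1 files hold MACS2 peaks that the authors called per library after adaptor trimming with Trimmomatic, alignment to hg38 with Bowtie2, input subtraction and removal of blacklisted regions. The deposited fold enrichment is a ratio to background, and the deposited −log10 p-values and q-values depend on read depth, which peak lists do not give. The RNA file holds raw counts per gene that the authors made with STAR and featureCounts from strand-specific polyA libraries. Totals of 28384201 to 40192606 counts per library set the counting precision. Antisense and overlapping genes are uncertain where the counting did not use strand, which the sources used here do not give.

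Peaks on chromosomes 1 to 22 and X were merged and classed against GENCODE annotation of hg38 with Python 3.11.15. A site went to the gene whose promoter window held it, then to the gene whose body did, then to the nearest start. Intervals on shares are exact Clopper-Pearson 95% intervals. Counts of 16879 genes kept by filterByExpr were fitted with edgeR 4.0.16 (R 4.3.3): TMM scaling, 1 model of the 4 groups, a two-sided quasi-likelihood F-test and Benjamini-Hochberg adjustment over all genes. In the table, 47 second copies of gene identifiers, holding 1 count in all, were set aside. Site classing and the count model were first tested on simulated data.

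Replicate numbers were not used as pairs, because same-numbered libraries did not deviate together in every pair. The RNA libraries are described as biological replicates, but nothing used here says that replicates were separate cultures, so p-values measure the spread between these libraries, which may be technical. The members, the gene lists and the naming rule (10 strongest sites, 10 largest rises and falls past the test, genes with most sites, list members) were chosen with earlier results of these data known. The authors' input libraries were not analysed here, and neither was the share of repeats. Alternatives tried were DESeq2 1.42.0, other scaling, no count filter, a replicate block, only the groups compared, stricter or equal-length peak lists, other promoter windows and leaving out each library. A few gene results are not reported here.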

Additional observations from a re-analysis of the deposited data

How the results depend on the processing

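The number of lost sites, 899, became 225 with peaks at a −log10 q-value of at least 5 and 488 when a TWEAK peak nearer than 1000 bp counted, and ranged from 1423 to 15142 when 1 of the 4 libraries was left out. Their promoter share, 12.7%, was 19.9% with a window of 2000 bp before to 500 bp after a start, 10.1% with starts of protein-coding genes only, 23.6% with the stricter peaks, 16.3% with equal numbers of peaks and 8.84% to 18.6% with 1 library left out. The share with a peak in at least 1 ETS1 KD library, 31.8%, was 9.23% for both libraries, 45.1% with the strongest peaks of 8 lists in equal numbers, 44.1% with equal numbers in the 4 control lists, 24.4% with the 1000 bp rule and 13.4% to 46.3% with 1 library left out. The share for NFKB2 KD, 35.6%, was 2.11% for both, 50.2% and 47.9% with the same equal numbers, 40.9% with the stricter peaks and 4.12% to 49.5% with 1 library left out, the lowest without NFKB2 KD library 1. The cause of these shifts was not tested.

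Falls with TWEAK, 25, were 38 with no filter on low counts and 4 to 16 with 1 library left out, and rises, 9, were 2 to 7. For ETS1 KD, the 1 rise became 3 with DESeq2, 7 with no filter, 2 with only the 2 groups compared and 0 to 1 with 1 library left out, and the 10 falls became 18 with DESeq2, 17 with no filter and 4 to 7 with 1 library left out. For NFKB2 KD, the 0 rises became 1 with DESeq2 and 6 with no filter. With the replicate number as a block, although the numbers did not pair the samples, the replicate block gave 13 rises and 31 falls with TWEAK, 2 rises and 12 falls with ETS1 KD and none with NFKB2 KD. Shares over all genes were not taken from these alternative fits, so their counts cannot be set against a background. Medians of log2 fold changes moved by less than their spread in every alternative run. Of the 27 values of named genes that passed, none turned direction in any alternative; 196 recomputed values stayed past the threshold and 101 missed it, most of them with 1 library left out. The TWEAK calls of *F2RL1*, *CYP1B1*, *CPM* and *KLF4* passed in every one.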
